A study of Homo sapiens with 24 samples.

Results

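FAM20A, FAM20B and FAM20C are the 3 members of the FAM20 family of secretory pathway kinases, and they make up 3 of the 59385 gene symbols counted in this series. They were selected on measured values: FAM20C was higher with wild-type SIRT6 than with empty vector in H1299 cells and not in A549 cells, and its relatives were added by name. The values that chose FAM20C are therefore given as a description, without a test, and only FAM20A and FAM20B are tested.

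RNA was sequenced from 2 established cell lines, A549 (lung adenocarcinoma) and H1299 (a non-small cell lung carcinoma from a lymph node). Each line had been stably transduced by lentivirus with a FLAG-tagged construct, so the controls carried a virus too. The 4 constructs were the empty vector (Ctr), wild-type SIRT6 (WT) and the SIRT6 mutants K3R and K3Q, named here as in the labels, which do not say which residues were changed. SIRT6 is a NAD-dependent deacylase that acts on chromatin. Each of the 8 groups of line and construct had 3 libraries. Library 1-1 was biological replicate 1 in batch 1, library 1-2 was biological replicate 1 in batch 2, and library 2-2 was biological replicate 2 in batch 2. The labels thus name 2 biological replicates per group, and libraries 1-1 and 1-2 belong to the same one. The fits, and each SD given below, count the 3 libraries as separate units. Nothing in the labels says that libraries came from separate cultures. The p-values therefore measure the spread between these libraries, which may be partly technical. In bulk RNA of this kind, fewer cells that express a gene and less RNA of it per cell cannot be told apart.

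FAM20 proteins work in the lumen of the secretory pathway. FAM20C is the Golgi casein kinase, which phosphorylates secreted proteins, among them proteins of bone, tooth and milk, on serines that precede an acidic residue. FAM20A is a pseudokinase that binds FAM20C and raises its activity, and its loss causes enamel defects. FAM20B is a sugar kinase that phosphorylates the xylose at the root of the linker that joins glycosaminoglycan chains to proteoglycans.

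In the GENCODE 29 annotation of GRCh38, FAM20C lies at chr7:192969-260745 on the plus strand, FAM20B at chr1:179025804-179076562 on the plus strand and FAM20A at chr17:68535113-68601389 on the minus strand. The genes that overlap them lie on the opposite strand and share 0 exonic bases with them. The bases before the start of FAM20C are shown because it was the member whose level differed most between groups. They are the 250 bases before the RefSeq start, chr7:192321-192570 on the plus strand of GRCh38.p14, with GC boxes (GGGCGG, either strand) and a CCAAT box (CCAAT, either strand) in capitals.
FAM20C: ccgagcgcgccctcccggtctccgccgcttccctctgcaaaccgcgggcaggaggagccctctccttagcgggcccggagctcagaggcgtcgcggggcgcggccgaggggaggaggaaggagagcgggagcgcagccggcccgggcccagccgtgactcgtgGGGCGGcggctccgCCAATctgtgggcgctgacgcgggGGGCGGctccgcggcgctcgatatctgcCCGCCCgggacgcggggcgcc
This window held 3 GC boxes, whose first bases lay 87, 49 and 21 bases before the start, and 1 CCAAT box at 73 bases. Also searched on both strands, and not found, were a TATA box (TATAAA, in 10.7% of windows), the E-box of ZEB and SNAI factors (CACCTG, 17.5%), the E-box of MYC (CACGTG, 6.34%), the AP-1 site (TGACTCA, 4.2%) and the cyclic AMP response element (TGACGTCA, 1.65%). Those shares are of 35116 RefSeq windows of the same length, of which 42.6% held a GC box and 32% a CCAAT box. The motifs do not overlap each other here. Its GC content was 78.4%, against a median of 58% over all windows, and it had 38 CpG dinucleotides against a median of 11. The GENCODE 29 start of FAM20C lies downstream of this window, which therefore holds 0 annotated exonic bases. These matches describe the sequence and are not evidence of binding.

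Depth was 16434492 to 19412274 counts per library in A549 and 14943189 to 22856407 in H1299, so that 3 counts corresponded to 0.131 to 0.201 CPM, the count scaled to a common library total. SIRT6 was high wherever the labels say it was introduced. The A549 mean was 26.7 CPM for the empty vector and 2236 for WT, 2289 for K3R and 1548 for K3Q. For H1299 the empty vector gave 40.6 ± 5.55 CPM (SD, n = 3 here and below), WT 4056 ± 2448, K3R 4295 ± 1691 and K3Q 13122 ± 2329. These counts do not separate introduced from endogenous SIRT6. CDKN2A, a tumour suppressor gene known to be deleted in A549, was at 0 to 1.30 CPM in A549 and 105 to 146 in H1299. The epithelial keratins KRT8 and KRT18 were present in all 24 libraries, while KRT19, EPCAM and CDH1 stayed at or under 0.643 CPM in H1299. The 4 fibroblast, 4 leukocyte and 4 endothelial markers summed to at most 2.34, 0.882 and 1.87 CPM in any library. The A549 K3Q libraries 1-2 and 2-2 were nearly alike, with a chi-square per degree of freedom of 2.60 over genes, against 16.1 to 71.5 for the other 23 pairs within groups.

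FAM20C, the casein kinase of the family, was abundant in A549 under every construct and nearly silent in H1299 with the empty vector or K3Q. WT and K3R were the H1299 groups in which it was higher. In A549 Ctr, libraries 1-1, 1-2 and 2-2 had 63.5, 57.6 and 41.2 CPM. The WT libraries of that line had 51.8, 49.8 and 52.5 CPM, those of K3R 65.2, 48.2 and 49.6, and those of K3Q 71.1, 45.3 and 47.0. All 4 groups overlapped, and 3 of the 4 highest values came from the 1-1 libraries of Ctr, K3R and K3Q.

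H1299 Ctr had 0.322, 0.0604 and 0.595 CPM of FAM20C, from 7, 1 and 10 counts. Its WT libraries had 4.82, 4.78 and 11.7 CPM, from 104, 85 and 195 counts. With K3R the values were 5.12, 3.61 and 4.58 CPM, from 117, 73 and 74 counts. The lowest of these 6 WT and K3R libraries stood 6.06 times above the highest Ctr library, and WT and K3R overlapped each other. K3Q gave 0.557, 0.201 and 0.650 CPM, from 12, 3 and 12 counts, and overlapped Ctr. The exact 95% Poisson interval of the single count in Ctr 1-2 reached 0.336 CPM, and that of the 73 counts in K3R 1-2 started at 2.83 CPM. Such intervals cover counting error only.

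**Figure D1:**
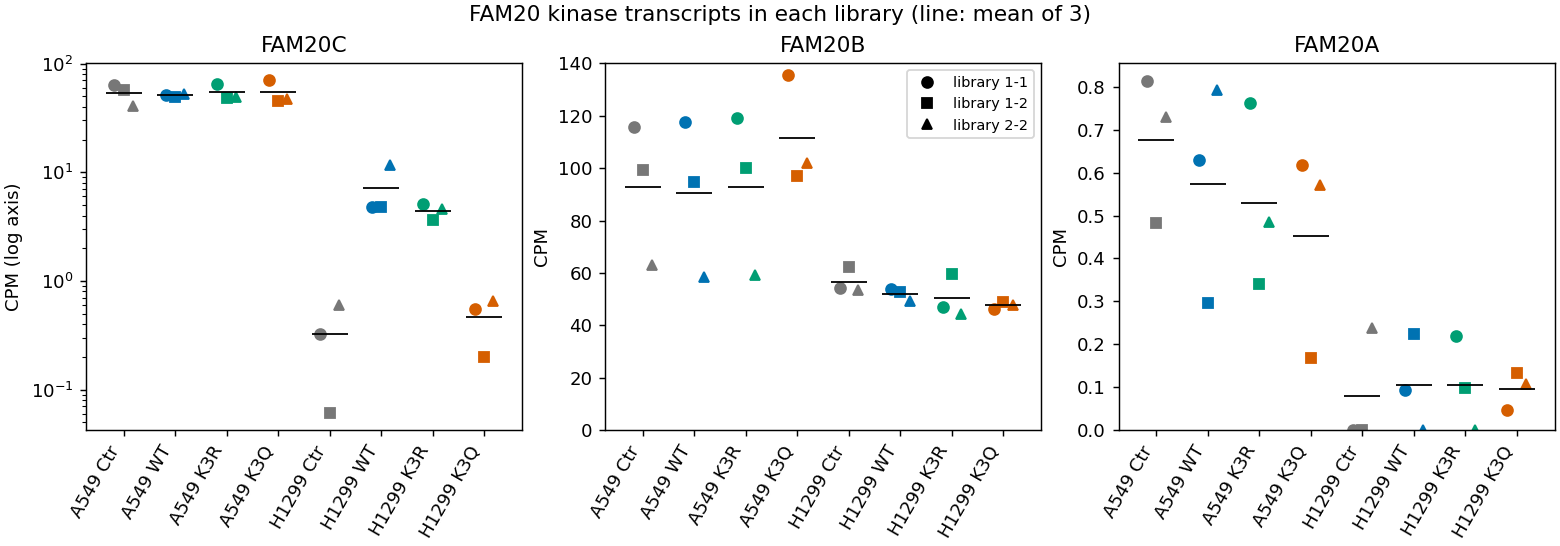
FAM20C, FAM20B and FAM20A in each of the 24 libraries, in CPM (log axis for FAM20C, linear axes from 0 for the other genes), by group, with the symbol giving the library and the line the mean of 3. FAM20C stood near 50 CPM in every A549 group, at 3.61 to 11.7 CPM in H1299 WT and K3R and at or under 0.650 CPM in H1299 Ctr and K3Q.

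Group means of FAM20C in H1299 were 0.326 ± 0.267 CPM for Ctr, 7.11 ± 4.01 for WT, 4.44 ± 0.767 for K3R and 0.469 ± 0.237 for K3Q. WT was thus 21.8 times and K3R 13.6 times Ctr. The fitted log2 differences from Ctr were 4.42 ± 0.54 (SE) for WT, 3.80 ± 0.55 for K3R and 0.66 ± 0.68 for K3Q. K3R differed from WT by -0.62 ± 0.41, K3Q from WT by -3.76 ± 0.51 and K3Q from K3R by -3.14 ± 0.51. In A549 the differences from Ctr were -0.03 ± 0.15 for WT, 0.03 ± 0.15 for K3R and 0.05 ± 0.15 for K3Q, and the 95% intervals of these 3 lay between -0.36 and 0.37. For the reason above no p is given for FAM20C. Across all genes, 4.05% of those tested passed for WT against Ctr in H1299, 3.25% for K3R and 0.0615% for K3Q, and 0.105%, 0.118% and 0.0248% did so in A549 (edgeR quasi-likelihood test, Benjamini-Hochberg adjusted p under 0.05). Between K3R and WT 0% of genes passed in either line, with 0.720% in A549 and 2.99% in H1299 under an unadjusted p of 0.05, between K3Q and WT 3.46% in H1299 and 0.0062% in A549, and between K3Q and K3R 0.449% and 0.0062%.

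Single libraries moved the size of these differences and not their order against Ctr. Without H1299 Ctr 2-2, the control library with most FAM20C, the log2 differences of WT, K3R and K3Q from Ctr were 5.07, 4.44 and 1.30. Without Ctr 1-2, that of K3Q was 0.20. WT 2-2 held both the most FAM20C and the most SIRT6 of its group, and without it the difference between K3R and WT shrank from -0.62 to -0.05. In the libraries of batch 2 alone, WT, K3R and K3Q stood 4.64, 3.65 and 0.50 above Ctr on the log2 scale.

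**Figure D2:**
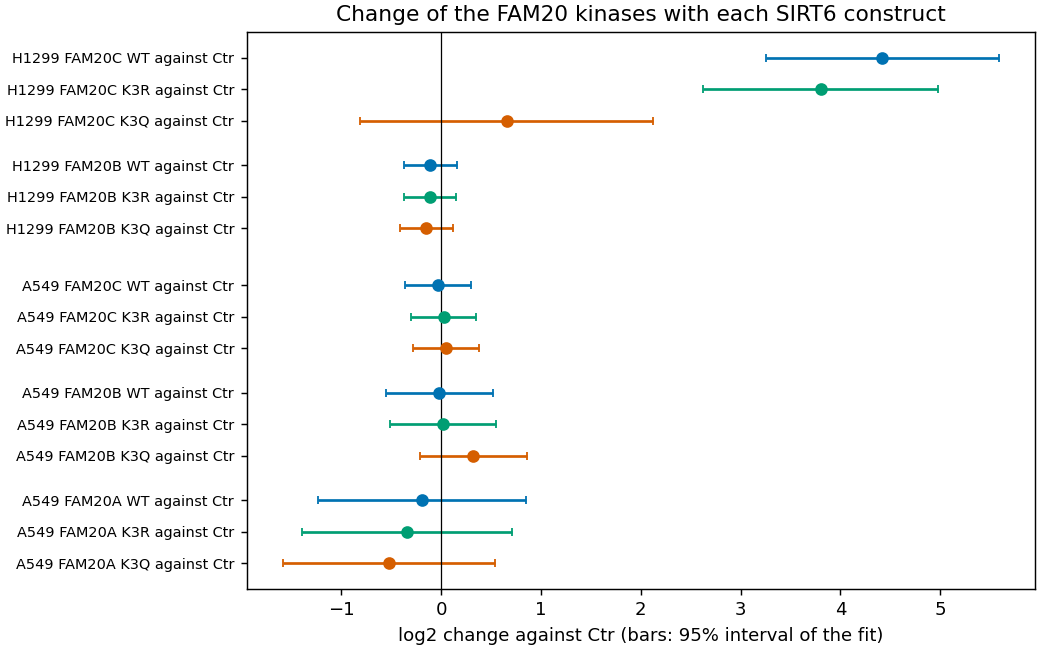
Log2 difference from the empty vector for WT, K3R and K3Q of FAM20C and FAM20B in both lines and of FAM20A in A549 (it was not fitted within H1299); points are fitted values and bars their 95% intervals. In H1299 FAM20C lay at 4.42 with WT and 3.80 with K3R, and in A549 between -0.03 and 0.05, and FAM20B lay between -0.15 and 0.32.

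The amount of SIRT6 transcript and of FAM20C did not follow the same order among the H1299 constructs. K3Q had the most SIRT6, 10434 to 14552 CPM, and the least FAM20C of the 3 SIRT6 groups. WT and K3R had 2490 to 6877 CPM of SIRT6 and their mean FAM20C was 15.2 and 9.46 times that of K3Q. SIRT6 itself was higher in K3Q than in WT by 1.78 ± 0.35 on the log2 scale (edgeR adjusted p = 0.0183). In A549, SIRT6 libraries between 1370 and 3254 CPM had 45.3 to 71.1 CPM of FAM20C, a range that held 2 of the 3 Ctr libraries. Protein levels were not measured here.

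**Figure D3:**
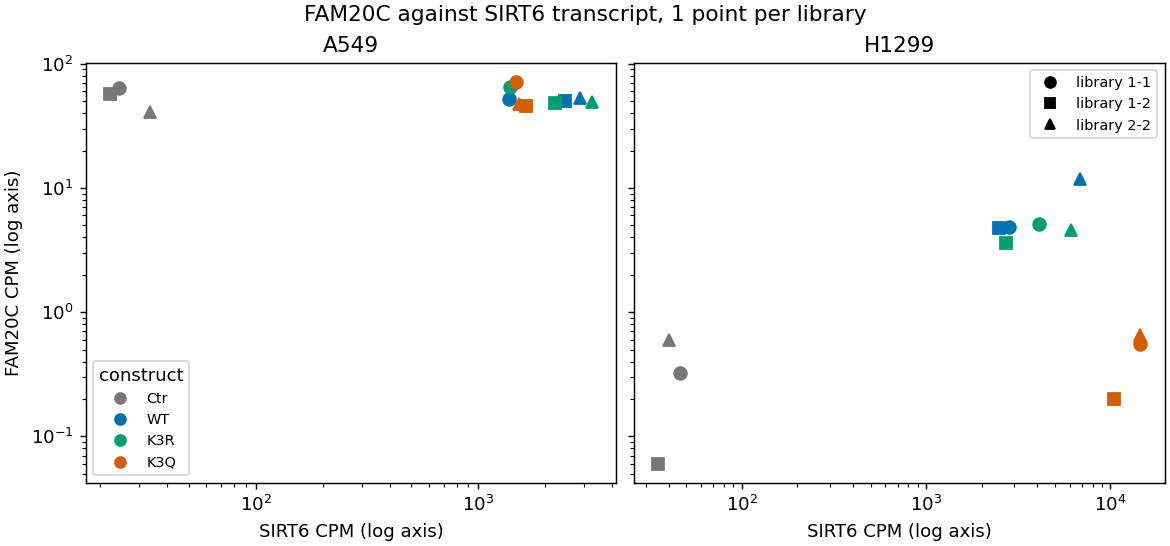
FAM20C against SIRT6 transcript in CPM, both on log axes, with 1 point per library, the colour giving the construct and the symbol the library. In H1299 the K3Q libraries stood furthest right, at 10434 to 14552 CPM of SIRT6, and level with Ctr in FAM20C, while A549 points formed a flat row.

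Between the lines at Ctr, FAM20C was 166 times higher in A549 than in H1299 by the ratio of means, a log2 difference of -7.50 ± 0.41 for H1299 against A549. The ratio was 7.22 with WT, 12.3 with K3R and 116 with K3Q, and no H1299 library reached the lowest A549 value. The change against Ctr was larger in H1299 than in A549 by 4.43 ± 0.52 for WT, 3.78 ± 0.54 for K3R and 0.61 ± 0.70 for K3Q on the log2 scale, values that chose the gene and carry no test. Without H1299 Ctr 2-2 the K3R value was 4.40. In the fit of both lines 65.5% of all genes differed between them at Ctr, and 0.735%, 0.475% and 0.0166% differed in their response to WT, K3R and K3Q.

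FAM20B, the xylose kinase, passed in no comparison of constructs. H1299 Ctr libraries had 54.4, 62.1 and 53.5 CPM, those of WT 53.9, 52.6 and 49.4, those of K3R 47.0, 59.7 and 44.4, and those of K3Q 46.2, 49.1 and 47.9. The K3Q values lay below all Ctr values, while WT and K3R overlapped Ctr. The log2 differences from Ctr were -0.11 ± 0.12 for WT, -0.11 ± 0.12 for K3R and -0.15 ± 0.12 for K3Q, with edgeR adjusted p of 0.719, 0.687 and 0.713. The 95% intervals ran from -0.37 to 0.15, from -0.38 to 0.15 and from -0.41 to 0.11. On the linear scale the lowest bound of the 3, that of K3Q, was 0.750 of Ctr and the highest, that of WT, 1.11 times Ctr.

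In A549, FAM20B varied more between library numbers than between constructs. Its 4 libraries numbered 1-1 had 116 to 136 CPM, those numbered 1-2 had 94.8 to 100.3 and those numbered 2-2 had 62.9 with Ctr, 58.6 with WT, 59.0 with K3R and 102 with K3Q. The last of these stood apart from the other 2-2 libraries, and it is 1 of the nearly alike K3Q pair. Log2 differences from Ctr were -0.02 ± 0.24 for WT, 0.02 ± 0.24 for K3R and 0.32 ± 0.24 for K3Q, and edgeR gave adjusted p of 0.996, 1.00 and 0.709. With the K3Q pair summed to 1 library the K3Q value was 0.30. Among WT, K3R and K3Q no difference of FAM20B passed in either line.

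FAM20B was lower in H1299 than in A549. At Ctr the means were 56.7 ± 4.75 and 92.7 ± 27.1 CPM, a log2 difference of -0.86 ± 0.20 (edgeR adjusted p = 0.000872). The 3 libraries of each line did not overlap, though the closest, H1299 1-2 and A549 2-2, were at 62.1 and 62.9 CPM. In batch 2 alone the difference was -0.70 and did not pass. Its response to the constructs did not pass as different between the lines, at -0.09 ± 0.28 for WT, -0.12 ± 0.28 for K3R and -0.48 ± 0.28 for K3Q.

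FAM20A, the pseudokinase that activates FAM20C, was close to the limit of detection. A549 libraries 1-1, 1-2 and 2-2 gave 15, 8 and 12 counts with Ctr, 11, 5 and 14 with WT, 13, 6 and 8 with K3R and 12, 3 and 10 with K3Q, which is 0.168 to 0.815 CPM. In each construct library 1-2 had the fewest. Log2 differences from Ctr were -0.19 ± 0.47 for WT, -0.34 ± 0.48 for K3R and -0.53 ± 0.48 for K3Q, and none passed (edgeR adjusted p = 0.967, 0.995 and 0.740). The widest 95% interval, that of K3Q, ran from -1.59 to 0.53, or from 0.332 to 1.45 times Ctr, so changes of that size could not be told from none at this depth.

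In H1299, FAM20A gave 0, 0 and 4 counts with Ctr, 2, 4 and 0 with WT, 5, 2 and 0 with K3R and 1, 2 and 2 with K3Q. A count of 0 allows up to 0.138 to 0.186 CPM in the 4 libraries at 0, counting error only, and 9 of the 12 held 3 counts or fewer. FAM20A did not pass the filter on low counts there, so within H1299 it was not tested, and the groups overlapped throughout. H1299 Ctr held 4 counts in all against 35 in A549 Ctr, a fitted log2 difference of -3.22 ± 0.88. FAM20A entered the fit of both lines through A549, where it is higher, so this difference is a description with no test. All 4 of those counts came from library 2-2. Without it the fitted value was -6.73, which rests on 0 counts and depends on the fit's prior count, and in batch 2 alone it was -2.46. The response of FAM20A to WT, K3R and K3Q did not pass as different between the lines, at 0.72 ± 1.31, 1.03 ± 1.30 and 0.92 ± 1.38.

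Compared per kilobase of exon, FAM20B and FAM20C were of similar level in A549 and far apart in H1299. With the empty vector, A549 had 15.4 ± 4.49 CPM per kb of FAM20B, 11.7 ± 2.49 of FAM20C and 0.109 ± 0.0278 of FAM20A. H1299 had 9.38 ± 0.786 of FAM20B, 0.0704 ± 0.0577 of FAM20C and 0.0128 ± 0.0221 of FAM20A. With WT, FAM20C reached 1.54 ± 0.866 CPM per kb in H1299, below every FAM20B library of that line, the lowest of which had 7.35.

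The other genes around these kinases were taken from 6 lists with 79 genes: relatives among secretory kinases, FAM20C substrates, enzymes that build the proteoglycan linker and start its chains, enamel genes, genes of mineral and phosphate handling, and suppliers of the secretory kinases. The lists were written with earlier results of these data known. Their shares beside those of all genes are therefore descriptive, here and below. In H1299, 50 of the 79 listed genes were tested. With WT 5 were higher and 2 lower than in Ctr, 14% of those tested against 4.05% of all genes. GASK1B and VWF, among these 5, passed the filter on low counts through groups where they were high, so the WT share is descriptive. With K3R 3 were higher and 3 lower, 12% against 3.25%, and with K3Q 0 passed, against 0.0615%. With the library number as a replicate block these counts became 12, 14 and 3, or 24%, 28% and 6% of the listed genes against 9.75%, 8.56% and 0.836% of all genes. For WT and K3R they were 4 and 2 without a batch term (8% and 4%, against 2.52% and 2.03% of all genes), 1 and 0 in batch 2 alone (2% and 0%, against 0.554% and 0.123%) and 0 and 1 with biological replicate 1 summed (0% and 1.92%, against 0.521% and 0.247%). They also moved with single libraries: the WT count was 1 without Ctr 2-2, 2 without Ctr 1-2 or WT 2-2 and 4 without WT 1-1, WT 1-2 or K3Q 1-1. The K3R count was 1 without Ctr 2-2, K3R 1-1 or K3R 2-2 and 2 without Ctr 1-2 or K3Q 1-1. The share of all genes was not computed with single libraries left out, so these drops are not particular to the listed genes as far as is known. In A549, 54 were tested and 1 passed, LAMB3 with K3R (1.85% against 0.118% of all genes), with 0 for WT and K3Q. Under the block the counts were 1, 1 and 6, against 0.651%, 0.546% and 0.893% of all genes.

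Among 10 relatives of the family, 7 were tested in H1299 and 2 passed with WT in opposite directions, 28.6% against 4.05% of all genes. With K3R and K3Q 0 passed, against 3.25% and 0.0615% of all genes. GASK1B, a Golgi-associated kinase also named FAM198B, rose from 0.597, 0.483 and 0.0595 CPM in Ctr (13, 8 and 1 counts) to 2.27, 3.71 and 3.73 in WT. Its log2 change was 3.11 ± 0.54 (edgeR adjusted p = 0.00743), and the call held with each library left out in turn and was lost with biological replicate 1 summed. GASK1B passed the filter on low counts in H1299 through WT and K3R, where it was high. Its p-values within that line, and its place in the 28.6%, are therefore descriptive. K3R libraries had 1.62, 1.48 and 1.05 CPM (log2 1.90 ± 0.55, edgeR adjusted p = 0.0856), and K3Q libraries 0.464, 0.134 and 0.108. WT, K3R and K3Q thus ranked as they did for FAM20C, and K3Q was lower than WT by -3.67 ± 0.58 (edgeR adjusted p = 0.00681), a difference of -4.57 without K3Q 1-1. That call was lost in batch 2 alone and with biological replicate 1 summed. In A549, where GASK1B averaged 5.49 ± 0.731 CPM in Ctr, the WT value was -0.83 ± 0.34 and did not pass, and the difference between the lines was 3.92 ± 0.65 (edgeR adjusted p = 0.00487). PKDCC, a secreted tyrosine kinase, fell with WT from 2.18 ± 0.645 to 0.838 ± 0.0937 CPM (log2 -1.36 ± 0.35, edgeR adjusted p = 0.0463), a call that ended without any of 10 single libraries (all but K3R 2-2 and K3Q 1-2), with log2 values of -1.55 to -1.06. The PKDCC call was also lost without a batch term, in batch 2 alone, with biological replicate 1 summed and in 1 fit of 24 libraries. The median log2 change of the 7 relatives was -0.28 with WT, against -0.01 over all genes.

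FAM20C substrates were mostly unexpressed: 8 of 25 could be tested in H1299 and 10 in A549. In H1299, 2 of the 8 passed with WT, 25% against 4.05% of all genes. With K3R 1 passed, 12.5% against 3.25%, and with K3Q 0 passed, against 0.0615%. SPP1, which encodes osteopontin, rose with WT in H1299 from 5.33, 1.87 and 1.84 CPM to 10.8, 5.39 and 12.5 (log2 1.78 ± 0.39, edgeR adjusted p = 0.0234). The lowest WT library stood just above the highest Ctr library. SPP1 also fell in K3Q against WT by -2.18 ± 0.40 (edgeR adjusted p = 0.0137), and K3R, with 8.84, 4.35 and 9.97 CPM, did not pass against Ctr (edgeR adjusted p = 0.0541). Its WT call ended without Ctr 1-2, Ctr 2-2 or WT 2-2, where the log2 change was as low as 1.32, and its call against K3Q ended without K3Q 1-1 or K3Q 1-2. Both SPP1 calls were also lost without a batch term, in batch 2 alone and with biological replicate 1 summed. VWF, the von Willebrand factor, passed with WT (log2 3.52 ± 0.74, edgeR adjusted p = 0.0199) from 2, 0 and 1 counts in Ctr to 9, 11 and 19 in WT, and this call ended without Ctr 1-2, Ctr 2-2 or WT 2-2, at 2.93 to 4.55 over all left-out libraries. VWF passed the filter on low counts through the groups where it was high, so its p-value and its place in the 25% are descriptive. The VWF call was also lost in batch 2 alone and with biological replicate 1 summed. VWF is also an endothelial marker, and the other 3 endothelial markers summed to 0.543 to 1.31 CPM in H1299 Ctr and 0.281 to 1.02 in WT, ranges that overlapped.

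FN1, which encodes fibronectin, fell with K3R in H1299 from 29.5, 13.1 and 16.8 CPM to 11.3, 9.39 and 10.6 (log2 -0.81 ± 0.19, edgeR adjusted p = 0.0328). That call ended without Ctr 1-1, where the log2 change was -0.59, and without Ctr 2-2, K3Q 1-1 or any 1 of the 3 K3R libraries. The FN1 call was also lost without a batch term, in batch 2 alone, with biological replicate 1 summed and in 1 fit of 24 libraries. FN1 averaged 14.0 ± 3.71 CPM in H1299 WT, which did not pass against Ctr, and 506 ± 406 CPM in A549 Ctr. No substrate passed in A549, against 0.105%, 0.118% and 0.0248% of all genes for WT, K3R and K3Q. Median log2 changes of the 8 substrates tested in H1299 were 0.55 with WT, 0.68 with K3R and 0.53 with K3Q, against -0.01 for all genes in each, with 7, 7 and 5 above 0. These values include VWF, which passed the filter on low counts through groups where it was high.

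Of the 16 enzymes that start proteoglycan chains, the group FAM20B belongs to, 15 were tested in each line. PXYLP1, the phosphatase that removes the phosphate FAM20B puts on xylose, had the lowest p of the list. Its H1299 Ctr libraries had 3.95, 3.62 and 5.12 CPM, WT 1.34, 1.35 and 1.99, K3R 0.788, 1.14 and 0.558, and K3Q 1.53, 1.41 and 1.46. Every SIRT6 library lay below every Ctr library. The log2 change was -1.43 ± 0.29 with WT (edgeR adjusted p = 0.0150) and -2.27 ± 0.30 with K3R (edgeR adjusted p = 0.00284), and K3Q, at -1.42 ± 0.29, did not pass (edgeR adjusted p = 0.132). The K3R call held with each library left out and was lost in batch 2 alone. The WT call was lost in batch 2 alone and with biological replicate 1 summed, and it ended without Ctr 2-2, WT 1-1 or WT 1-2, at -1.62 to -1.29 over all left-out libraries. PXYLP1 did not pass in A549, where Ctr averaged 8.98 ± 2.14 CPM.

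CHPF, the chondroitin polymerizing factor, rose in H1299 from 32.3 ± 6.51 CPM to 62.6 ± 18.7 with WT (log2 0.93 ± 0.22, edgeR adjusted p = 0.0330) and to 63.6 ± 21.5 with K3R (0.99 ± 0.22, edgeR adjusted p = 0.0282). B3GALT6, a galactosyltransferase of the linker, rose from 66.3 ± 10.8 to 97.1 ± 25.4 CPM with WT (0.55 ± 0.13, edgeR adjusted p = 0.0369) and to 98.5 ± 17.4 with K3R (0.63 ± 0.13, edgeR adjusted p = 0.0240). XYLT2, a xylosyltransferase that starts the linker, fell from 44.0 ± 4.71 to 30.3 ± 2.86 CPM with K3R (-0.48 ± 0.12, edgeR adjusted p = 0.0420). With WT, XYLT2 averaged 32.2 ± 1.62 CPM and did not pass against Ctr, and K3R differed from WT by -0.05 ± 0.12. All of these calls were lost in batch 2 alone and with biological replicate 1 summed, and each ended without 5 to 8 of the 12 libraries taken singly, Ctr 1-2 and Ctr 2-2 among them each time. With each library left out in turn CHPF lay between 0.72 and 1.28, B3GALT6 between 0.43 and 0.71 and XYLT2 between -0.55 and -0.44. Of the 15 enzymes 2 were higher and 1 lower with WT, 20% against 4.05% of all genes, and 2 were higher and 2 lower with K3R, 26.7% against 3.25%. The median log2 change was 0.04 with WT and 0.09 with K3R, with 10 of 15 above 0 in each.

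Enamel genes, the setting in which FAM20A is best known, gave 1 call in each line, both with K3R. In H1299 that was 1 of 7 tested, 14.3% against 3.25% of all genes. In A549 it was 1 of 9 tested, 11.1% against 0.118%. COL17A1, a hemidesmosome collagen tied to inherited enamel defects, rose with K3R in H1299 from a mean of 19.7 to 45.1 CPM (log2 1.19 ± 0.28, edgeR adjusted p = 0.0380). With WT, COL17A1 averaged 41.8 CPM there and did not pass against Ctr. K3R differed from WT by 0.18 ± 0.27, which did not pass. LAMB3, a laminin chain of the same junction, rose with K3R in A549 from 32.7 ± 7.68 to 77.6 ± 11.5 CPM (1.25 ± 0.19, edgeR adjusted p = 0.0435). LAMB3 was at 1.19 ± 0.19 with WT (edgeR adjusted p = 0.0539) and at 0.91 ± 0.19 with K3Q, neither of which passed. The COL17A1 call ended without Ctr 1-2, Ctr 2-2, K3R 1-1, K3R 2-2 or K3Q 1-1, at 0.92 to 1.47 over all left-out libraries. That of LAMB3 ended without 9 of the 12 A549 libraries (all but Ctr 1-1, WT 1-1 and WT 1-2), at 1.03 to 1.53. The COL17A1 and LAMB3 calls were also lost without a batch term, in batch 2 alone and with biological replicate 1 summed. That of LAMB3 was lost with the A549 K3Q pair summed too.

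No gene passed among the 12 of mineral and phosphate handling, 9 of them tested in each line, or among the 4 suppliers, all tested. Of all genes, 4.05%, 3.25% and 0.0615% passed in H1299 with WT, K3R and K3Q, and 0.105%, 0.118% and 0.0248% in A549. At such shares, 0 calls among so few genes is no result about these genes. The lowest unadjusted p of the mineral list belonged to PHOSPHO1, a phosphatase of mineralization, in A549 with WT (log2 1.09 ± 0.28, edgeR adjusted p = 0.211). Of the suppliers it belonged to MBTPS1, the protease known to process FAM20C, in H1299 with K3Q (0.18 ± 0.10, edgeR adjusted p = 0.561). MBTPS1 averaged 147 CPM in A549 Ctr and 194 in H1299 Ctr.

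**Figure D4:**
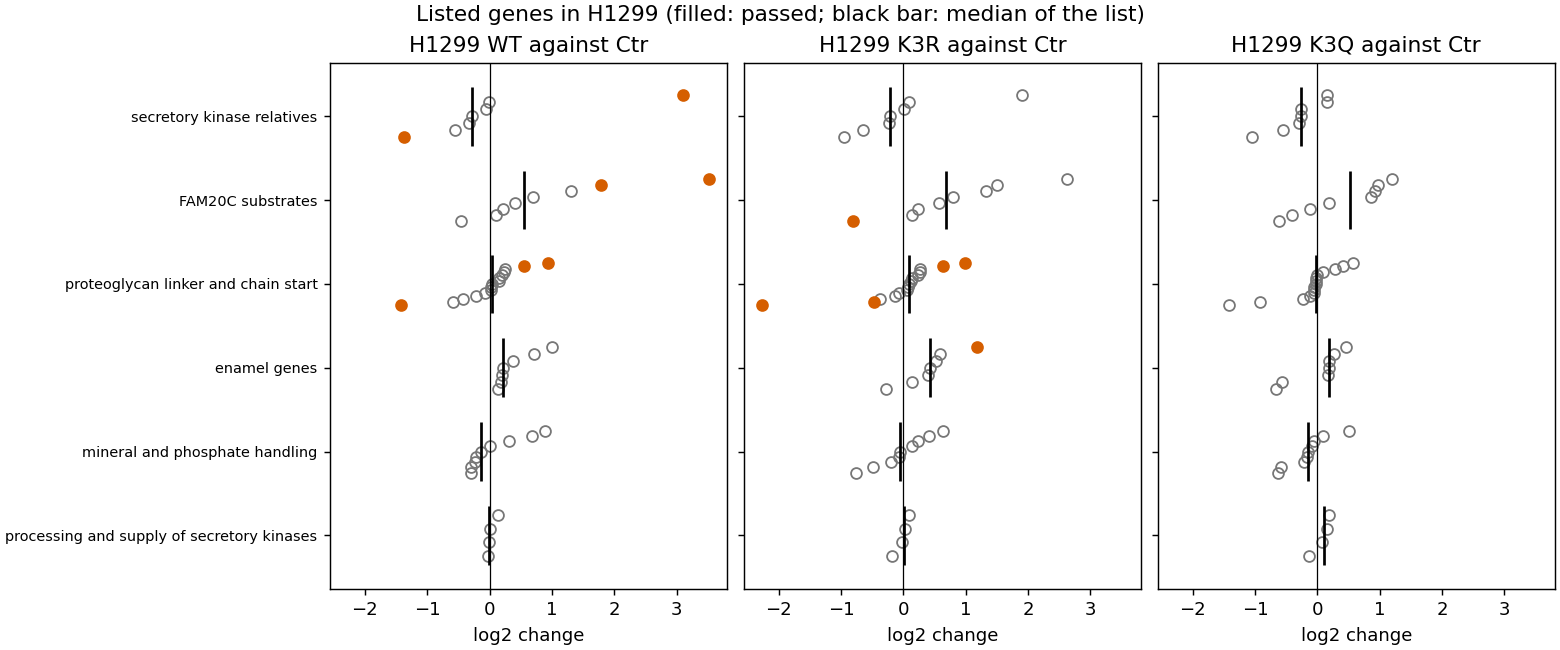
Log2 change against Ctr in H1299 for the tested genes of each list, for WT, K3R and K3Q on a shared axis; filled points passed and the black bar is the list's median. With WT 7 points are filled, with K3R 6 and with K3Q 0, and list medians lie between -0.28 and 0.68.

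Position was not used in choosing the members, so the nearest tested genes were examined. FAM20C is close to the end of chromosome 7, and its 5 nearest tested genes all lie on the side away from that end. PDGFA, which encodes a platelet-derived growth factor chain, is the closest of these placed genes, at chr7:497258-520296 and 236.5 kb away. In H1299 it had 1.33, 0.966 and 3.81 CPM with Ctr, 5.84, 9.27 and 10.7 with WT, 6.17, 10.0 and 12.3 with K3R and 2.88, 4.62 and 4.76 with K3Q. WT and K3R did not overlap Ctr or K3Q, and K3Q overlapped Ctr. PDGFA rose by 2.10 ± 0.32 with WT (edgeR adjusted p = 0.00409) and by 2.28 ± 0.32 with K3R (edgeR adjusted p = 0.00348) on the log2 scale, and K3Q, at 1.12 ± 0.33, did not pass (edgeR adjusted p = 0.309). In A549, where Ctr averaged 25.9 CPM, the values were 0.08 ± 0.12, -0.09 ± 0.12 and -0.22 ± 0.12 and none passed. The response differed between the lines by 2.02 ± 0.33 for WT (edgeR adjusted p = 0.00451) and 2.37 ± 0.33 for K3R (edgeR adjusted p = 0.00158). PDGFA, like FAM20C, was high in A549, low in H1299 Ctr (log2 -3.89 ± 0.25 for H1299 against A549, edgeR adjusted p = 4.95e-11) and higher in H1299 with WT and K3R. Its calls within H1299 held with each library left out, with changes of 2.70 and 2.87 without Ctr 2-2, and were lost in batch 2 alone, at 2.08 and 2.27, and with biological replicate 1 summed, at 1.95 and 2.16.

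PRKAR1B, a regulatory subunit of protein kinase A 288 kb away, passed with K3R in H1299 (0.82 ± 0.18, edgeR adjusted p = 0.0284). WT, at 0.60 ± 0.18, and K3Q, at 0.80 ± 0.18, did not pass, and all 9 SIRT6 libraries lay above the 3 of Ctr. The K3R call ended without any 1 of the Ctr libraries or without K3R 1-1, K3R 2-2 or K3Q 1-1, at 0.60 to 1.01 over all left-out libraries. The PRKAR1B call was also lost in batch 2 alone and with biological replicate 1 summed. HRAT92, a noncoding RNA that starts beside PDGFA, had 1, 0 and 0 counts in H1299 with Ctr, 3, 6 and 12 with WT, 1, 3 and 3 with K3R and 5, 0 and 0 with K3Q, and was not tested there. In A549 with Ctr it had 11, 10 and 26 counts, so it too was at a higher level in that line. DNAAF5 and SUN1, 466 and 556 kb away, did not pass in either line. Of the 4 neighbours of FAM20C tested in H1299, 1 passed with WT and 2 with K3R, against 4.05% and 3.25% of all genes. Among the 10 neighbours of FAM20A, MAP2K6, a kinase of the p38 pathway 813 kb away, fell in A549 with WT (-0.77 ± 0.10, edgeR adjusted p = 0.0177) and K3R (-0.66 ± 0.10, edgeR adjusted p = 0.0435). The K3R call of MAP2K6 ended without any single library, at -0.75 to -0.55, and the WT call without Ctr 1-2, K3Q 2-2 or any 1 of the WT libraries, at -0.87 to -0.67. Both MAP2K6 calls were also lost without a batch term, in batch 2 alone, and with biological replicate 1 or the A549 K3Q pair summed. That for K3R was lost in 1 fit of 24 libraries too. Among the 10 of FAM20B, RALGPS2, an exchange factor 104 kb away, fell in H1299 with K3R (-1.11 ± 0.22, edgeR adjusted p = 0.0169). RALGPS2 was at -1.31 ± 0.22 with K3Q (edgeR adjusted p = 0.0704) and -0.42 ± 0.21 with WT, and at -0.55 with K3R and -0.47 with WT in A549, none of which passed. Its K3R call in H1299 ended without Ctr 1-2, Ctr 2-2, K3R 1-1 or K3R 2-2, at -1.32 to -0.93. That call was also lost in batch 2 alone and with biological replicate 1 summed. Of the 9 neighbours of FAM20A tested in A549, 1 passed with WT and 1 with K3R, against 0.105% and 0.118% of all genes. Of the 9 of FAM20B tested in H1299, 1 passed with K3R, against 3.25%.

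**Figure D5:**
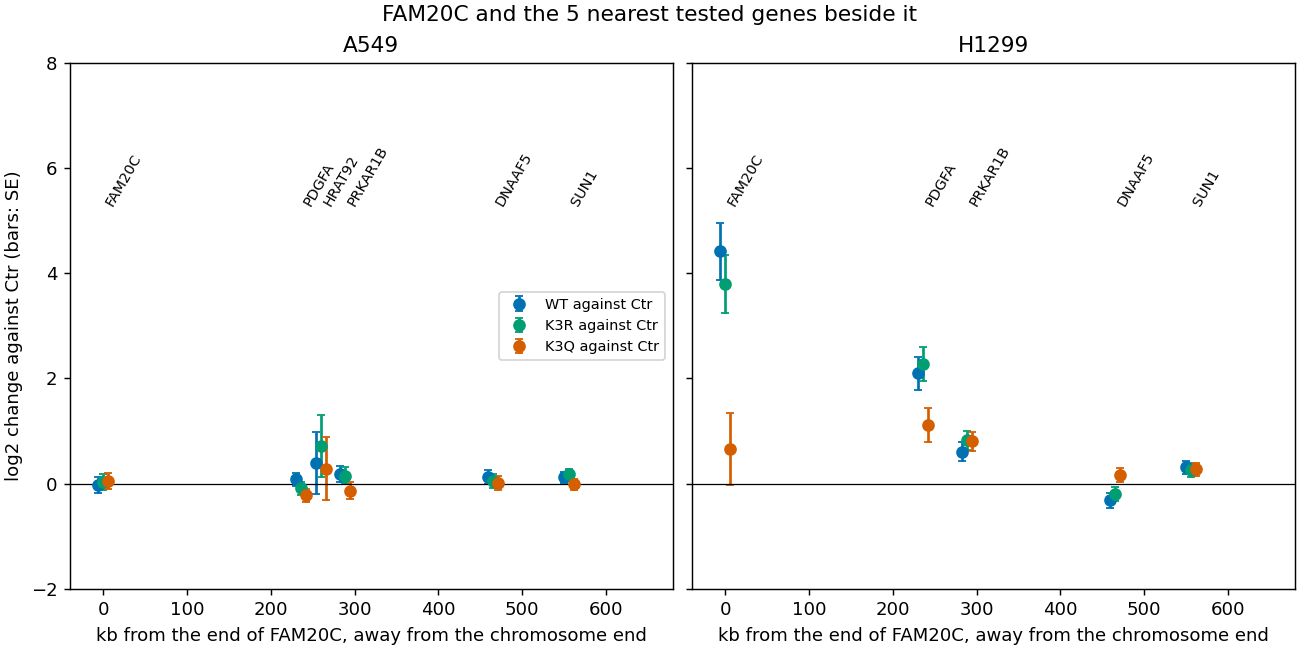
Log2 change against Ctr of FAM20C and its nearest tested genes, by distance in kb from the end of FAM20C, in A549 and H1299; points are fitted values and bars SE. In H1299 PDGFA lies at 2.10 with WT and 2.28 with K3R beside FAM20C at 4.42 and 3.80, and DNAAF5 and SUN1 lie between -0.32 and 0.31.

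The genes whose log2 CPM followed FAM20C most closely over the 12 H1299 libraries were AC093627.9 (Pearson r = 0.975), FAM133A (0.972), ABCD2 (0.962), GPAT3 (0.958) and CCNA1 (0.955). These were the highest of 12561 genes with a mean log2 CPM of at least 1. The points share libraries, depth and construct, and the values are descriptive. AC093627.9 averaged 0.983 ± 0.335 CPM in H1299 Ctr, against 5.81 ± 2.01 for WT, 4.89 ± 0.608 for K3R and 1.29 ± 0.208 for K3Q. It could not be placed in GENCODE 29, but its clone name is that of AC093627.3, an antisense gene annotated over the start of FAM20C. AC093627.3 shares 0 exonic bases with FAM20C. In A549 Ctr, AC093627.9 averaged 2.19 ± 0.369 CPM and FAM20C 54.1 ± 11.5. Whether reads were counted by strand is not given, and whether AC093627.9 and FAM20C share reads was not tested. ABCD2, a peroxisomal fatty acid transporter, averaged 3.94 CPM for Ctr, 13.7 for WT, 11.1 for K3R and 4.50 for K3Q. GPAT3, an acyltransferase of lipid synthesis, averaged 26.9 CPM for Ctr, 49.5 for WT and 45.1 for K3R.

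In A549 the genes closest to FAM20C were PLXND1 (r = 0.955), IDH2 (0.943), PIGS (0.940), EEF2K (0.930) and SSR2 (0.925), so no gene stood in the closest 5 of both lines. FAM20B was followed most closely by THAP5, CDCA7 and ERH in A549 (r = 0.985 to 0.986) and by ZNF451 (0.950), CCNJ (0.935) and GNB4 (0.932) in H1299. For FAM20A in A549 they were MTRES1 (0.945), NUDT6 (0.918) and ADGRD1 (0.896).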

How the data were processed

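Total RNA of 24 libraries was sequenced, and the deposited values are raw counts of reads per gene symbol, made by the authors and not normalized. FastQC, cutadapt, STAR, featureCounts and GRCh38 are listed per the submitters' processing notes. Their versions, the annotation release and any use of strand in counting were not given in the sources used here. GENCODE 29 placed 40216 of the 59385 symbols. Coordinates of genes are from that release, and the upstream sequence is from RefSeq on GRCh38.p14, whose table matched 2 of the 3 members.

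From the counts, CPM used the library total, and folds came from edgeR 4.0.16 in R 4.3.3 (TMM scaling, filterByExpr, quasi-likelihood test) with group and batch as terms. Each line was fitted alone (16120 genes tested in A549, 16262 in H1299), and both were fitted together (18102 genes) for differences between the lines. Adjusted p is Benjamini-Hochberg over all genes tested, with a threshold of 0.05, and SE is the fold divided by the square root of F. Depth limits low genes: 3 counts are the floor that a count of 0 allows. The fits were tested on simulated data.

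The members and lists were chosen with earlier results of these data known. Named were the members, up to 4 genes per list and neighbourhood with the lowest p among those that passed in each line, the gene with the lowest p where none passed, and the genes of like pattern (5 for FAM20C, 3 for the other members in each line where they were ranked). Alternatives were no batch term, a replicate block, RLE scaling, no filter, DESeq2 1.42.0, 1 fit of 24 libraries, batch 2 alone, biological replicate 1 summed, the nearly alike A549 K3Q pair summed, and each library left out. Library numbers carry the batch and replicate of the labels. Deviations of same-numbered libraries from their group means correlated at 0.134 to 0.549 in H1299 (18 pairs) and 0.278 to 0.749 in A549 (15 pairs), and at 0.0569 to 0.119 for the 3 pairs with A549 K3Q 2-2.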

Additional observations from a re-analysis of the deposited data

Results flagged for a closer look

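The following genes responded differently in the 2 lines, by a test of the difference itself (edgeR, H1299 minus A549, log2 scale, each against its own Ctr). PXYLP1, the xylose phosphatase, differed by -1.41 for WT (adjusted p = 0.0431) and by -2.11 for K3R (adjusted p = 0.00365). The WT value lost its call without any 1 of 19 of the 24 libraries, at -1.58 to -1.26, and it was also lost without a batch term. Both PXYLP1 values lost their call in batch 2 alone. GASK1B differed by 3.92 for WT (adjusted p = 0.00487), and PDGFA by 2.02 for WT (adjusted p = 0.00451) and 2.37 for K3R (adjusted p = 0.00158). The GASK1B and PDGFA calls held with each of the 24 libraries left out, where GASK1B ranged from 3.45 to 4.50 and PDGFA from 1.63 to 2.98, its 2 highest values being without H1299 Ctr 2-2. Both PDGFA calls were lost in batch 2 alone, and that for WT also without a batch term. Biological replicate 1 was not summed in the fits of both lines. Within H1299, summing it ended the GASK1B call for WT against Ctr and both PDGFA calls. It also ended the PXYLP1 call for WT there, and that for K3R held. FAM20C differed by 4.43 for WT and 3.78 for K3R, a difference that chose the gene and has no test.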

How the results depend on the processing

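No FAM20B difference between constructs passed under any alternative run in either line, and no FAM20A difference did so in A549. FAM20A within H1299 was not tested in the main analysis and was not followed here. FAM20C kept its sign against Ctr for WT, K3R and K3Q in H1299. In batch 2 alone the difference between the lines at Ctr was -2.46 for FAM20A and -0.70, no longer passing, for FAM20B. Some signs turned. FAM20B in H1299, K3R against WT, was 0.0022 with no filter, 0.0058 in 1 fit, 0.054 in batch 2 alone and 0.043 in the 1-1 and 1-2 libraries only, an alternative chosen after seeing the data. FAM20A turned from -0.15 to 0.23 for A549 K3R against WT in those libraries, and from 1.03 to -0.46 for the K3R difference between lines in batch 2 alone. The cause was not tested.

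Counts of listed genes that passed moved most. With the replicate block they were 1, 1 and 6 in A549 (WT, K3R, K3Q; 0, 1 and 0 in the main analysis) and 12, 14 and 3 in H1299 (7, 6 and 0). With no filter they were 4, 6 and 9 in A549 (5.8%, 8.7% and 13% of the listed genes, against 0.84%, 0.894% and 1.82% of all genes), and 13 for K3R and 5 for K3Q in H1299 (17.8% and 6.85%, against 3.59% and 0.731%). DESeq2 gave 1 for A549 WT, 4 for A549 K3Q and 1 for H1299 K3Q (1.85%, 7.41% and 2.13%, against 1.1%, 0.955% and 0.793%). The 1-1 and 1-2 libraries gave 5, 6 and 6 in A549 (8.93%, 10.7% and 10.7%, against 2.32%, 2.44% and 1.81%) and 16, 11 and 15 in H1299 (32.7%, 22.4% and 30.6%, against 8.96%, 7.22% and 12.2%). Without a batch term H1299 had 4 and 2 for WT and K3R, in batch 2 alone 1 and 0, and with replicate 1 summed 0 and 1; A549 K3R had 0 in these 3 and with the K3Q pair summed. In 1 fit, A549 WT and H1299 K3Q had 1 (1.79% each, against 0.105% and 0.238%).

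With each library left out, these counts were 0 to 1 for A549 WT and K3R, 1 to 8 for H1299 WT and 1 to 7 for H1299 K3R. The shares of all genes in those fits were not computed. In A549, FAM20A ranged from -0.66 to 0.046 for WT, -0.39 to 0.31 for K3R against WT, -0.72 to 0.13 for K3Q against WT and -0.55 to 0.15 for K3Q against K3R. FAM20B there ranged from -0.22 to 0.20 for WT, -0.20 to 0.23 for K3R and -0.18 to 0.23 for K3R against WT. In H1299 FAM20B ranged from -0.15 to 0.10 for K3R against WT, -0.087 to 0.012 for K3Q against WT and -0.14 to 0.11 for K3Q against K3R, and FAM20C from -0.96 to -0.046 for K3R against WT. Between the lines FAM20A ranged from -0.29 to 4.22 for WT and -0.30 to 4.50 for K3R, FAM20B from -0.29 to 0.12 and -0.33 to 0.10, and FAM20C for K3R from 3.33 to 4.40.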
